A study of Mus musculus with 30 samples.

Results

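A set of 10 genes of steroid hormone metabolism and of the glucocorticoid axis was described in mouse liver: Hsd11b1, Srd5a1, Akr1c6, Hsd3b2, Hsd3b3, Hsd3b5, Hsd17b2, Hsd17b6, Nr3c1 and Serpina6. They were chosen by symbol, and all 10 were found among the 55450 genes of the count table. The libraries were made from polyA RNA of whole liver of male mice on a C57BL/6N background that all carried floxed Cebpa alleles, the gene of the hepatocyte transcription factor C/EBPα, and that were all given a diet rich in fat, cholesterol and fructose (HFCFD). In each of 3 experiments, 5 Cre-negative Cebpa fl/fl mice were compared with 5 Cre-positive knockouts, 1 library per mouse, 30 in all.

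In the HFCFD2W experiment, the knockouts were CebpaΔHep mice, in which the albumin promoter drives Cre constitutively, and the diet lasted 2 weeks without tamoxifen. In the experiments labelled HFCFD8W+Tamoxfen 10D and HFCFD12W+Tamoxifen10W, the knockouts were CebpaΔHep,ERT2 mice, in which an albumin-driven Cre is activated by tamoxifen. The fl/fl mice of these experiments carry the same tamoxifen label as the knockouts. The first of them ended with 10 days and the second with 10 weeks of tamoxifen. In the second, the diet was given for 22 weeks in all, the last 10 of them with tamoxifen, while for the first the sources used here give 8 weeks of diet and 10 days of tamoxifen but no total. They are called the 10-day and the 10-week tamoxifen experiments here. Mouse age was not given in the sources used here. Between HFCFD2W and the tamoxifen experiments, Cre line, time on diet and tamoxifen change together and cannot be told apart. Between the tamoxifen experiments, the Cre line is the same, but time on diet and length of tamoxifen change together and cannot be told apart. In whole liver, fewer cells of a type and less RNA per cell cannot be told apart either.

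The liver both inactivates and regenerates steroid hormones. Hsd11b1, 11β-hydroxysteroid dehydrogenase type 1, turns inactive 11-dehydrocorticosterone back into corticosterone, the main glucocorticoid of the mouse, which circulates bound to the hepatocyte-secreted globulin encoded by Serpina6 and acts through the glucocorticoid receptor Nr3c1. Srd5a1 is a 5α-reductase of androgens and glucocorticoids, whereas the Hsd3b, Hsd17b and Akr1c enzymes oxidize or reduce the hydroxyl and keto groups of androgens, oestrogens and progestins. Several of these hepatic enzymes differ between the sexes in mice, and Hsd3b5 is a male-typical liver gene.

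Expression is given as CPM, counts relative to library size, after scaling of the libraries by trimmed mean of M values (TMM). Log2 fold changes (knockout over fl/fl) come from edgeR's quasi-likelihood test fitted across all expressed genes, and a gene passed the test when its Benjamini-Hochberg adjusted p was below 0.05. The libraries held 7996123 to 10257347 counts. The deletion was visible in every library: Cebpa stood at 149 to 193 CPM in fl/fl and 3.43 to 5.68 CPM in knockout mice of HFCFD2W, at 121 to 156 against 11.1 to 25.1 CPM in the 10-day and at 82.5 to 135 against 18.7 to 23.8 CPM in the 10-week tamoxifen experiment. All 10 hepatocyte markers examined were detected and tested in each experiment, with albumin (Alb) the most abundant. The 7 adrenocortical markers summed to at most 4.36 CPM in any library. Cyp11b1, Cyp11b2 and Mc2r, singled out for this, had 0 counts in all 30, whereas Star reached 32 counts and Akr1b7 was higher in 10-week knockouts (3.08, adjusted p = 0.00021), at up to 21 counts.

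The 10 genes lie on 7 chromosomes of mm10. Hsd3b5 (chr3:98618634-98630252), Hsd3b2 (chr3:98709255-98724543) and Hsd3b3 (chr3:98741523-98763127) lie close together on the minus strand of chromosome 3. Akr1c6 (chr13:4434306-4457877, plus strand) and Srd5a1 (chr13:69573449-69611442, minus strand) share a chromosome but are far apart. Hsd11b1 (chr1:193221634-193264075), Hsd17b6 (chr10:127990936-128007611) and Serpina6 (chr12:103646630-103657212) are on the minus strand. Hsd17b2 and Nr3c1 lie on other chromosomes.

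Promoter windows of the RefSeq annotation (GRCm38.p6, 250 bases before to 50 after a start site) were found for 7 of the 10 genes, 9 windows in all; Hsd17b2, Nr3c1 and Serpina6 had none. Neither TTGCNNAA, a C/EBP-type motif, nor a glucocorticoid response element type motif, GNACA and TGTNC separated by 3 bases of any kind, occurred on either strand of any of the 9 windows. These motifs occur in 10.8% and 0.475% of the 32851 windows of the same length. The Hsd11b1 window was entirely exonic in other annotated transcripts, and the Hsd3b5 window starts 15282 bases from the nearest annotated start of that gene. The 250 bases upstream of 4 starts are shown because these genes changed in different experiments: Srd5a1, which was lower in the knockouts of every experiment, Hsd3b2 and Hsd3b3, which were lower in the tamoxifen experiments, and Hsd17b6, which was lower in HFCFD2W. They are printed 5′ to 3′ on the coding strand. Capitals mark CCAAT (or ATTGG on this strand) and GGGCGG, 2 promoter elements looked up after the sequences had been read, which occur on either strand in 33.8% and 32.7% of all such stretches.
Srd5a1, chr13:69611464-69611713, minus strand: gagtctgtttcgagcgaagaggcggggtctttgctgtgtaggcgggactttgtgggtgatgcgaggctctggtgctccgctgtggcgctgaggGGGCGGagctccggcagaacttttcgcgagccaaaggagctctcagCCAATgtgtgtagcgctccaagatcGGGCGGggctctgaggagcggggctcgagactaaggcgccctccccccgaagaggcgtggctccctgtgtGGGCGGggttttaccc
Hsd3b2, chr3:98724544-98724793, minus strand: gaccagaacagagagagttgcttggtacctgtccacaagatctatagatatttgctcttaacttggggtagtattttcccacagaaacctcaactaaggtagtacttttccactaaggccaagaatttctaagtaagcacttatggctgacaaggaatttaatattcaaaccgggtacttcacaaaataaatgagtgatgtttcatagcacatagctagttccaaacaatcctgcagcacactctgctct
Hsd3b3, chr3:98763129-98763378, minus strand: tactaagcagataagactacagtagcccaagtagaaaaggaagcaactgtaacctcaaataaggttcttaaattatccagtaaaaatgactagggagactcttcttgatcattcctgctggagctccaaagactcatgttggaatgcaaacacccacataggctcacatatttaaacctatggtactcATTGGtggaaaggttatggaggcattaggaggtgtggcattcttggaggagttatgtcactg
Hsd17b6, chr10:128007612-128007861, minus strand: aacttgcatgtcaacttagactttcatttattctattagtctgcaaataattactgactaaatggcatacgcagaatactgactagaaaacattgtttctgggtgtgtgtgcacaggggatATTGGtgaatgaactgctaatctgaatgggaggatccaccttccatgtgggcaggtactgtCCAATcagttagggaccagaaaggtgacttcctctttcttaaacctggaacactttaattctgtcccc
The Srd5a1 stretch was 64.8% G and C and held 3 GGGCGG elements, against a median of 52.4% over all windows, whereas the Hsd3b2 (39.6%), Hsd3b3 (41.2%) and Hsd17b6 (41.2%) stretches held none. When the Hsd3b2 and Hsd3b3 stretches were aligned with shifts allowed, 128 bases matched, 51.2% of 250. No value for unrelated stretches is given beside it, so it does not show a shared origin.

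Among the members tested in edgeR, Hsd11b1 had the largest decrease in each experiment (the plots of CPM by mouse and of log2 fold change). In HFCFD2W, the 5 fl/fl mice had 387, 424, 362, 397 and 399.6 CPM and the 5 knockouts 79.2, 84.4, 46.4, 49.6 and 57.2 CPM. In the 10-day tamoxifen experiment, the values were 301, 189, 239, 232 and 285 CPM against 44.97, 39.1, 56.9, 91.3 and 65.8 CPM. Those of the 10-week experiment were 152, 137, 258, 231 and 279.7 CPM against 29.7, 38.2, 45.9, 43.1 and 43.1 CPM. Every knockout mouse was below every fl/fl mouse, not only within its own experiment but across all 30 livers. The fold change was -2.63 (SE 0.158, adjusted p = 8.19e-07) on the log2 scale in HFCFD2W, -2.06 (SE 0.214, adjusted p = 6.11e-05) in the 10-day and -2.36 (SE 0.202, adjusted p = 1.75e-06) in the 10-week experiment, that is 6.20-, 4.16- and 5.13-fold lower. None of the 3 differences between these effects passed the interaction test. The lowest adjusted p among them was 0.214, for a difference of 0.57 (SE 0.289) between the 10-day experiment and HFCFD2W. In TPM, RSEM's transcript abundance per length, a scale on which genes of different length can be compared, Hsd11b1 had the second highest mean of the 10 genes in fl/fl livers of HFCFD2W (284 ± 10.8 TPM, SD, n = 5) and the sixth in the knockouts (50.7 ± 14.4 TPM).

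Among 10950 genes tested in all 3 experiments, Gstt3, a glutathione transferase, had the pattern most like Hsd11b1, at a Euclidean distance of 0.117 over the 3 log2 fold changes (-2.67, -2.01 and -2.46). Susd4, at a distance of 0.671, and Slc17a1, a solute carrier at 0.773, came next. The distance rests on 3 values per gene.

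**Figure D1:**
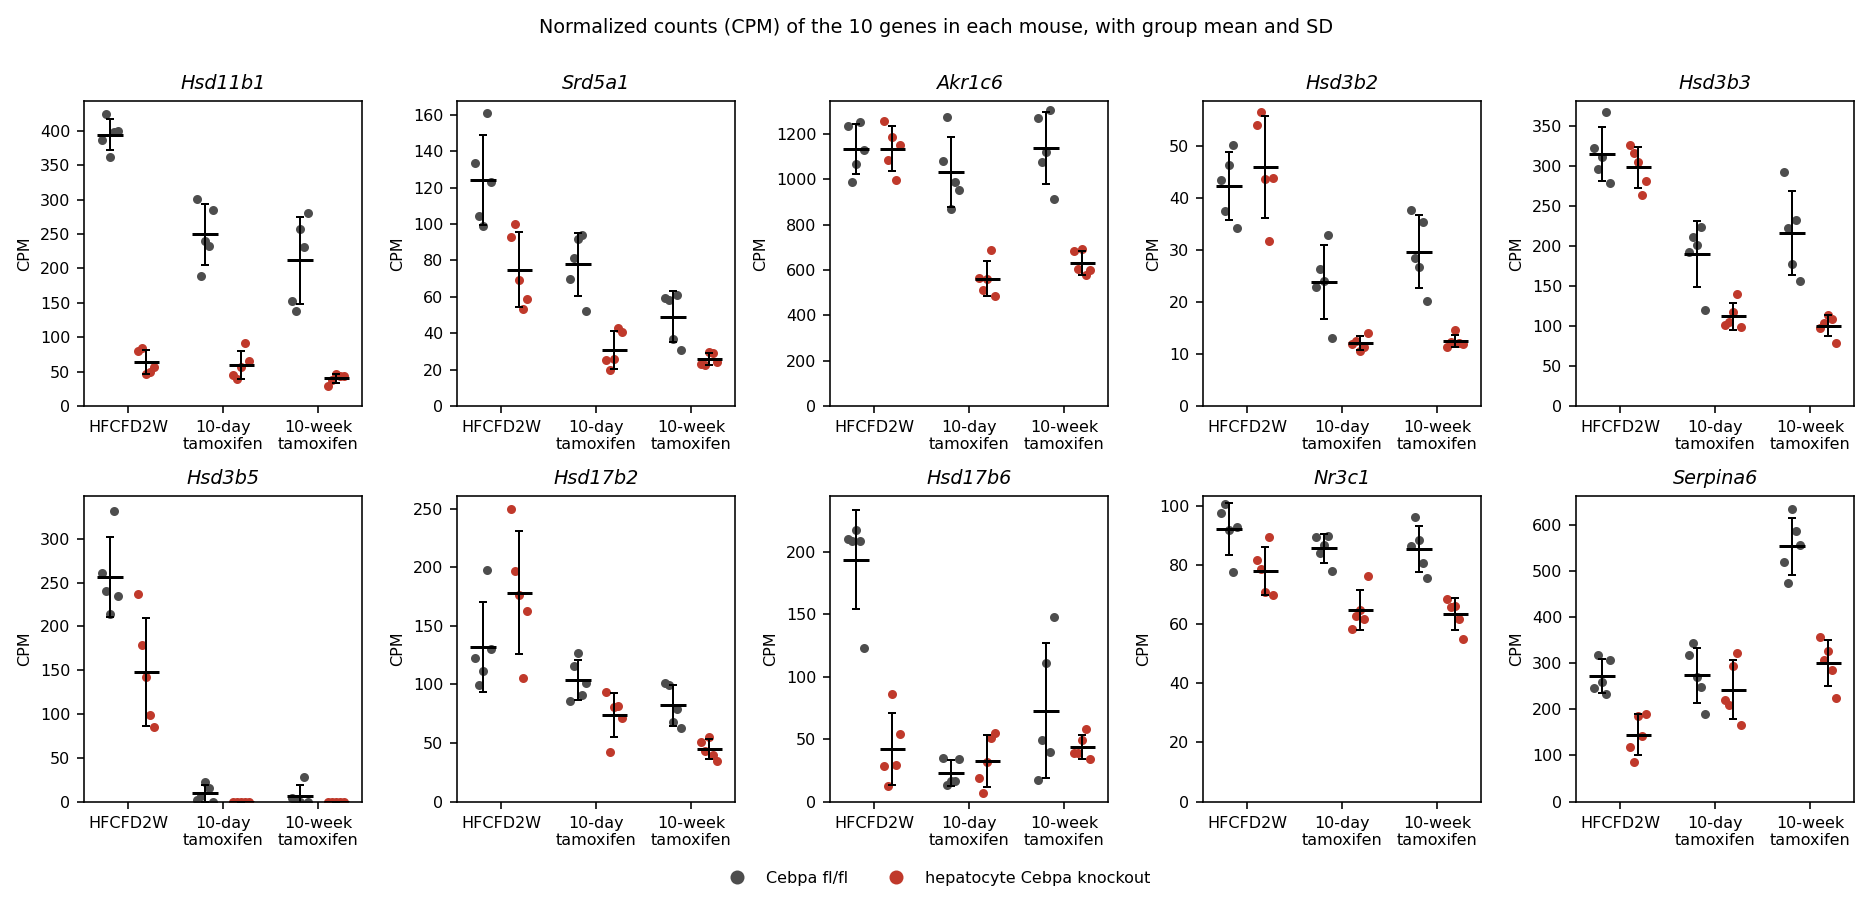
Each panel plots 1 gene's TMM-scaled CPM (linear axis from 0) for the 5 fl/fl mice (grey) and 5 knockout mice (red) of each experiment, with horizontal lines for the mean and bars for the SD. All 15 knockout livers lie below all 15 fl/fl livers for Hsd11b1, whereas Hsd3b5 is at 85.68 CPM or more in every HFCFD2W liver and near 0 in the knockouts of the tamoxifen experiments.

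Srd5a1 was the other gene that was lower in the knockouts of all 3 experiments. In HFCFD2W, the fl/fl mice had 133, 104, 99.1, 161 and 123 CPM and the knockouts 92.9, 99.99, 69.5, 53.3 and 58.8 CPM, and the groups overlapped at 1 knockout mouse. In the 10-day tamoxifen experiment, 69.6, 81.2, 91.8, 93.97 and 52.04 CPM stood against 25.1, 19.7, 25.9, 42.9 and 40.5 CPM. Likewise, 59.05, 58.01, 36.5, 61.1 and 31.000 CPM in the 10-week experiment stood against 23.02, 22.6, 29.9, 29.01 and 24.1 CPM. In both tamoxifen experiments, all knockouts were below all fl/fl mice in CPM. The groups overlapped in TPM, at 24.9 to 47.9 TPM in fl/fl and 12.9 to 30.1 TPM in knockout mice of the 10-day experiment. In the 10-week experiment they were at 16.2 to 35.6 and 18.97 to 21.5 TPM, and without TMM factors the edgeR log2 fold change there was -0.52 (adjusted p = 0.0218). With TMM factors, the log2 fold changes in HFCFD2W, the 10-day and the 10-week experiment were -0.72 (SE 0.177, adjusted p = 0.0147), -1.32 (SE 0.217, adjusted p = 0.00153) and -0.89 (SE 0.182, adjusted p = 0.00128). Both Hsd11b1 and Srd5a1 thus passed the test in the same direction in all 3 experiments, 2 of the 9 members tested in each, against 1.95% of the 10950 genes tested in all 3. The HFCFD2W value of Srd5a1 did not pass when mice were blocked by replicate number (adjusted p = 0.135). The estimated counts of Srd5a1 were not whole in 27 of 30 libraries, and 15.1% of the 50-base stretches of its transcripts also occur in Gm17108 transcripts.

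Akr1c6, a liver 17β-hydroxysteroid dehydrogenase of the aldo-keto reductase family and the most abundant of the 10 genes per length in every group, separated the experiments. In HFCFD2W, the fl/fl mice had 1237, 988, 1067, 1252 and 1128 CPM and the knockouts 1257, 1086, 1188, 999 and 1150.4 CPM, with overlapping groups and a log2 fold change of 0.00 (SE 0.0888, adjusted p = 0.988). In the 10-day tamoxifen experiment, 1079.9, 1275, 871, 987 and 955 CPM fell to 567, 513, 559, 687 and 488 CPM, and in the 10-week experiment 1269.5, 1076, 1121, 1307 and 914 CPM fell to 684, 605, 692, 578 and 601 CPM. In CPM, all 10 tamoxifen-treated knockouts were below all 20 other livers. In TPM, they were below the fl/fl mice of their own experiment. The 10-week knockouts, at up to 926.4 TPM, then overlapped the HFCFD2W fl/fl livers, the lowest of which was at 757.9 TPM. The log2 fold changes there were -0.86 (SE 0.14, adjusted p = 0.00147) and -0.80 (SE 0.106, adjusted p = 4.8e-05). The change differed from that of HFCFD2W by -0.88 (SE 0.16, adjusted p = 0.000512) in the 10-day and -0.85 (SE 0.16, adjusted p = 0.000231) in the 10-week experiment, by the interaction test in edgeR.

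Hsd3b2 and Hsd3b3, members of the 3β-hydroxysteroid dehydrogenase family, showed the same split between experiments as Akr1c6. Hsd3b3 read 323, 296, 311, 367 and 279 CPM in fl/fl and 326, 316, 304, 264 and 281 CPM in knockout mice of HFCFD2W, and the groups overlapped. In the 10-day tamoxifen experiment it read 192, 211, 202, 224 and 119 CPM against 102, 105, 117, 140.0 and 98.7 CPM, where fl/fl mouse 5 lay among the knockouts. The 10-week experiment gave 292, 222, 178, 232 and 156 CPM against 97.5, 104, 114, 108 and 78.9 CPM, with no overlap. Its log2 fold change was -0.08 (SE 0.0859, adjusted p = 0.579), -0.74 (SE 0.16, adjusted p = 0.00819) and -1.06 (SE 0.155, adjusted p = 0.000107) in the 3 experiments.

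Hsd3b2 was expressed at a much lower level per length, 14.6 ± 2.56 TPM against 251.9 ± 27.9 TPM for Hsd3b3 in HFCFD2W fl/fl livers (SD, n = 5). It ranged from 34.2 to 50.2 CPM in fl/fl and 31.7 to 56.4 CPM in knockout livers of HFCFD2W, from 13.1 to 32.8 and 10.6 to 14.1 CPM in the 10-day experiment, and from 20.2 to 37.7 and 11.4 to 14.5 CPM in the 10-week experiment. The fold changes were 0.12 (SE 0.145, adjusted p = 0.624), -0.96 (SE 0.193, adjusted p = 0.00569) and -1.21 (SE 0.151, adjusted p = 3.13e-05) on the log2 scale. Interaction tests against HFCFD2W passed for both genes: -1.09 (adjusted p = 0.00518) and -1.37 (adjusted p = 0.000183) for Hsd3b2, and -0.68 (adjusted p = 0.0363) and -1.03 (adjusted p = 0.000571) for Hsd3b3. The 10-day value for Hsd3b3 did not pass in 9 of 30 fits that left out a mouse, nor with library totals in place of TMM factors (-0.51, adjusted p = 0.0754).

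Hsd3b5, a 3-ketosteroid reductase of the male mouse liver, ranged from 0 counts to 332 CPM over the 30 livers. In HFCFD2W, the fl/fl mice had 261, 240.0, 214, 332 and 234 CPM and the knockouts 237, 179, 142, 98.4 and 85.7 CPM. The fold change was -0.79 (SE 0.233, adjusted p = 0.0359) on the log2 scale, and 1 knockout overlapped the fl/fl mice. This call was weak: 7 of the 10 fits that left out 1 mouse lost it, as did the joint fit of all libraries (adjusted p = 0.448) and the replicate block (adjusted p = 0.111).

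In the 10-day tamoxifen experiment, the fl/fl mice had only 18, 49, 194, 156 and 1 counts of Hsd3b5, and the 5 knockouts had 0 counts each. In the 10-week experiment, the fl/fl mice had 37, 5, 1, 243 and 0 counts and the knockouts 0, 0, 1, 0 and 1. Hsd3b5 was thus low in the fl/fl livers of both experiments, with large differences between mice, and at or below 1 count in all 10 knockouts. The gene fell below the expression filter within each of these experiments and was not tested there. Without the filter, edgeR gave an adjusted p of 0.000927 in the 10-day and 0.00199 in the 10-week experiment, and limma on the authors' normalized values gave 0.0174 and 0.0949. Against a floor of 3 counts per knockout library, its mean CPM was at least 31.4-fold lower in knockout than in fl/fl livers of the 10-day experiment, and at least 20.4-fold without fl/fl mouse 3. The corresponding bound in the 10-week experiment was at least 25.2-fold and rested on fl/fl mouse 4. Without that mouse it was at least 4.85-fold, and 1 fl/fl mouse was at 0 counts itself.

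Every fl/fl liver of the tamoxifen experiments lay below every fl/fl liver of HFCFD2W in Hsd3b5 CPM. No test is given for this difference, since the gene passed the expression filter in the fit of all libraries through HFCFD2W, where it was high. Of the TPM summed over all 7 Hsd3b genes listed, Hsd3b5 made up 19.5% to 25.3% in HFCFD2W fl/fl livers and 13.3% to 23.9% in HFCFD2W knockouts. In the tamoxifen experiments, its share was 0.0264% to 5.27% (10-day) and 0% to 5.86% (10-week) in fl/fl livers, and at most 0.0316% in knockouts.

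Reads of the Hsd3b genes can be split between paralogs: 25.1% of the 50-base stretches of Hsd3b2 transcripts, 21.2% of those of Hsd3b5 and 6.69% of those of Hsd3b3 also occur in transcripts of other genes. The closest partner of Hsd3b2 was Hsd3b3, with other stretches shared with further genes, and that of Hsd3b3 was Hsd3b2, with 6.34%, whereas Hsd3b5 shared 18.2% with Gm10681. The estimated counts of Hsd3b2 and Hsd3b3 were not whole numbers in any of the 30 libraries. The 3 genes were also summed, which covers reads split among them but not those split with Gm10681 or other genes. The sum was 613.8 ± 81.2 CPM in fl/fl and 492.4 ± 93.9 CPM in knockout livers of HFCFD2W (SD, n = 5 each; difference of the mean log2 values -0.33, exact two-sided permutation p = 0.0635). It was 222.9 ± 54.2 against 124.5 ± 16.04 CPM in the 10-day experiment (-0.80, exact permutation p = 0.0159). It was 252.4 ± 64.4 against 113.0 ± 14.3 CPM in the 10-week experiment (-1.12, exact permutation p = 0.00794, the smallest that 5 against 5 mice allow). With all 7 Hsd3b genes summed, the difference was -0.62, -0.74 and -0.73 in the 3 experiments (exact permutation p = 0.00794 in each), most of the added level in HFCFD2W being Hsd3b7, at 627 ± 30.6 CPM in fl/fl and 324 ± 69.3 CPM in knockout mice. On summed TPM of the 3 genes, it was -0.22 (exact permutation p = 0.159) in HFCFD2W, -0.57 (p = 0.0317) in the 10-day and -0.71 (p = 0.00794) in the 10-week experiment. In the plot of Hsd3b TPM by mouse, the Hsd3b5 part is smaller in fl/fl livers of the tamoxifen experiments than in HFCFD2W and smaller again in their knockouts.

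**Figure D2:**
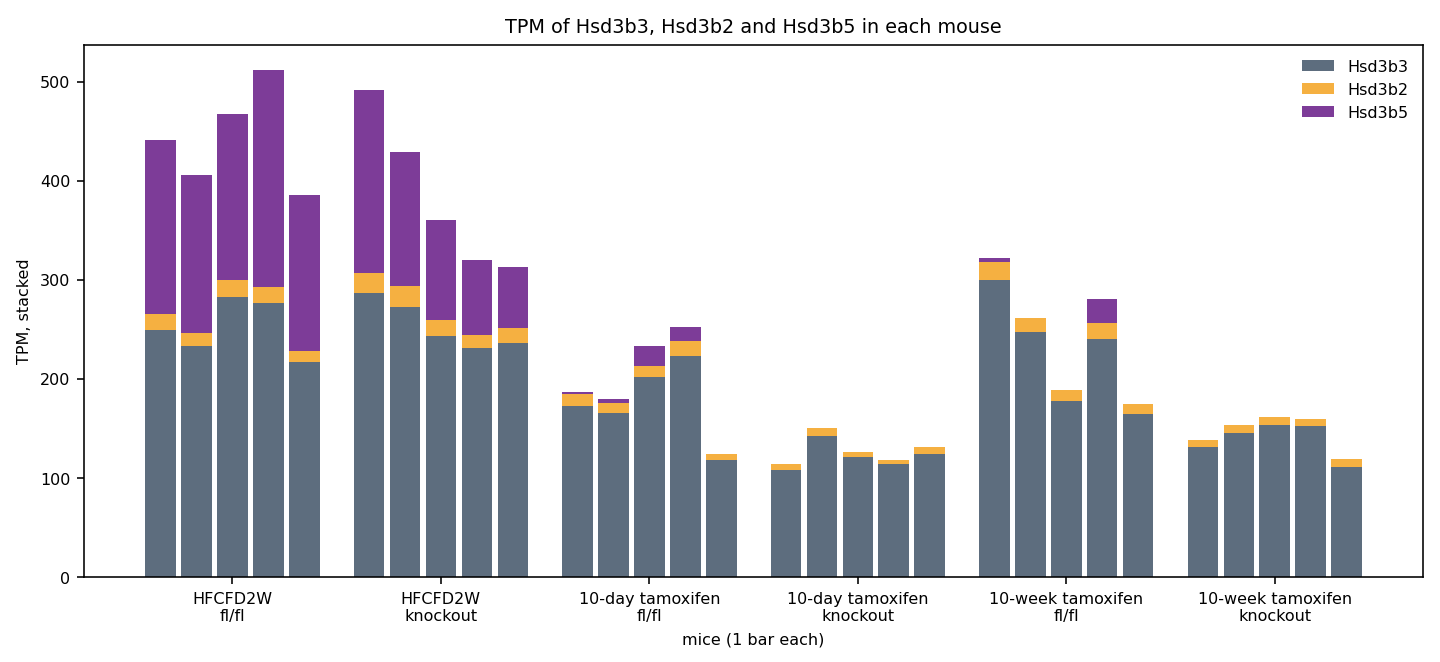
Each bar is 1 mouse, and its height is the stacked TPM of Hsd3b3 (grey), Hsd3b2 (orange) and Hsd3b5 (purple). The purple part is large in the 10 HFCFD2W livers, small and uneven in the fl/fl livers of the tamoxifen experiments and all but missing in their knockouts.

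The 17β-hydroxysteroid dehydrogenases did not move together. Hsd17b2 oxidizes oestradiol and testosterone to their less active keto forms. In HFCFD2W, it stood at 123, 99.1, 111, 197 and 130.0 CPM in fl/fl and 249.8, 197, 176, 106 and 162 CPM in knockout mice, overlapping groups with a log2 fold change of 0.43 (SE 0.211, adjusted p = 0.181). Levels in the 10-week experiment were lower, where 101, 99.4, 68.01, 79.1 and 62.7 CPM stood against 50.7, 43.3, 55.1, 39.9 and 34.3 CPM, with every knockout below every fl/fl mouse. The change there was -0.83 (SE 0.156, adjusted p = 0.000708), and that of the 10-day experiment was -0.48 (SE 0.179, adjusted p = 0.0844). Both tamoxifen experiments differed from HFCFD2W in this effect, by -0.93 (adjusted p = 0.0377) and -1.31 (adjusted p = 0.00128). The former did not pass in 9 of 30 fits that left out a mouse, nor with library totals in place of TMM factors (-0.79, adjusted p = 0.059).

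Hsd17b6, an oxidative dehydrogenase of androstanediols, was lower in the knockouts of HFCFD2W. In HFCFD2W, the fl/fl mice had 210.0, 208, 218, 209 and 123 CPM and the knockouts 28.4, 12.1, 86.1, 29.1 and 53.9 CPM. All knockouts were below all fl/fl mice, and the log2 fold change was -2.22 (SE 0.382, adjusted p = 0.00182), which is 4.65-fold lower. In the 10-day experiment, the fl/fl mice had 34.997, 13.5, 16.2, 16.9 and 33.7 CPM and the knockouts 18.6, 6.99, 31.5, 50.9 and 54.99 CPM. In the 10-week experiment, the values were 17.5, 49.5, 111, 39.5 and 147 CPM and 38.97, 39.1, 49.2, 58.4 and 33.8 CPM. The groups overlapped in both, with fold changes of 0.50 (SE 0.451, adjusted p = 0.5) and -0.70 (SE 0.433, adjusted p = 0.201). Without fl/fl mouse 1 of the 10-week experiment, the lowest of its group, the latter became -0.97 (adjusted p = 0.0297). The effect in the 10-day experiment differed from that in HFCFD2W by 2.70 (SE 0.689, adjusted p = 0.0105). The fl/fl level itself was lower in the tamoxifen experiments, by -3.06 (SE 0.507, adjusted p = 2.08e-05) in the 10-day and -1.41 (SE 0.47, adjusted p = 0.0186) in the 10-week experiment. The latter did not pass without fl/fl mouse 1, 2 or 4 of the 10-week experiment, the highest adjusted p being 0.0572. Its estimated counts were not whole in 29 of 30 libraries, and 12.1% of its 50-base stretches also occur in Rdh1 transcripts.

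**Figure D3:**
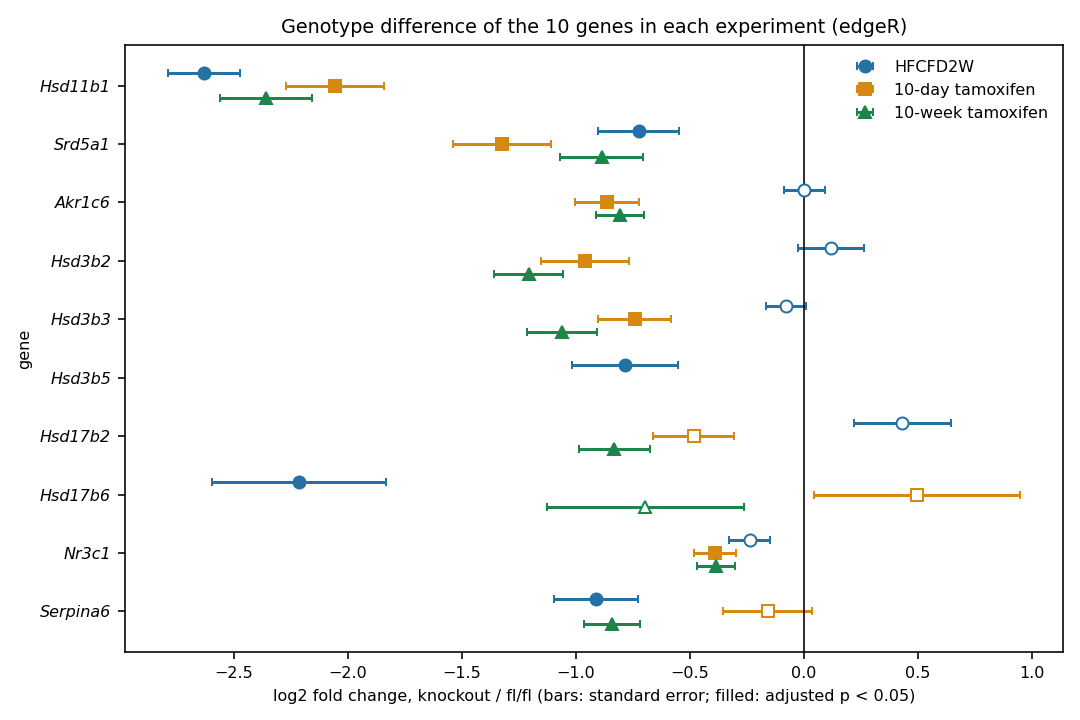
Points are log2 fold changes of knockout over fl/fl livers (horizontal axis) with standard errors for each gene in HFCFD2W (circles), the 10-day (squares) and the 10-week tamoxifen experiment (triangles), filled where the adjusted p was below 0.05. Hsd3b5 has a point for HFCFD2W alone because it was not tested in the other experiments. Hsd11b1 lies below -2 in all 3, and Akr1c6, Hsd3b2 and Hsd3b3 lie near 0 in HFCFD2W alone.

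Nr3c1, the glucocorticoid receptor gene, ranged from 77.7 to 101 CPM in fl/fl and 69.97 to 89.3 CPM in knockout livers of HFCFD2W, from 77.9 to 89.7 and 58.5 to 76.2 CPM in the 10-day and from 75.5 to 96.2 and 55.03 to 68.6 CPM in the 10-week experiment. In both tamoxifen experiments, the knockouts were all below the fl/fl mice in CPM, but the groups overlapped in TPM. The log2 fold changes were -0.24 (SE 0.0905, adjusted p = 0.092), -0.39 (SE 0.0919, adjusted p = 0.013) and -0.39 (SE 0.0821, adjusted p = 0.00168). With library totals in place of TMM factors, the median of all genes moved to 0.20 in the 10-day and 0.38 in the 10-week experiment, and Nr3c1 stood at -0.20 (adjusted p = 0.32) and -0.02 (adjusted p = 0.863). Relative to the median of all genes, Nr3c1 was at -0.40 in both experiments with TMM factors, and at -0.39 and -0.40 with library totals.

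Serpina6, corticosteroid-binding globulin, was 245, 317, 259.8, 233 and 306 CPM in fl/fl and 119, 86.2, 186, 143 and 189.5 CPM in knockout mice of HFCFD2W, with no overlap (-0.91 (SE 0.185, adjusted p = 0.00515)). In the 10-day experiment, it was 317, 343, 270.2, 249 and 189.6 CPM against 221, 209, 294, 322 and 166 CPM, overlapping groups with a fold change of -0.16 (SE 0.195, adjusted p = 0.63). In the 10-week experiment, it was 518, 473, 634, 586 and 555 CPM against 357, 306, 327, 284 and 224 CPM, again without overlap (-0.84 (SE 0.124, adjusted p = 0.000115)). No interaction passed for Serpina6 in edgeR, the lowest adjusted p being 0.0683 for the 10-day experiment against HFCFD2W (0.74). This difference passed in DESeq2 (0.75, adjusted p = 0.0492) and without TMM factors (0.90, adjusted p = 0.00755). Among fl/fl livers, Serpina6 was the 1 member that was higher in the 10-week experiment than in HFCFD2W (1.02 (SE 0.189, adjusted p = 0.000115)), and it was higher than in the 10-day experiment by 1.02 (SE 0.188, adjusted p = 0.000625). The knockouts of the 10-week experiment, at 299.7 ± 49.9 CPM (SD, n = 5), stood beside the fl/fl livers of HFCFD2W, at 272 ± 37.3 CPM.

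Counted over the members, 5 of 10 were lower and 0 higher in HFCFD2W, where 8.09% of the 11068 genes tested were lower. In the 10-day experiment, 6 of the 9 tested were lower and 0 higher, against 6.85% of 11990 genes. Of the 9 tested in the 10-week experiment, 8 were lower and 0 higher, against 23.8% of 12463 genes. In CPM, all knockouts were below all fl/fl mice for 3 of the 10 members in HFCFD2W (6.13% of all genes tested), for 4 of the 9 tested in the 10-day (5.5%) and for 8 of the 9 tested in the 10-week experiment (19.5%). Among these, the groups of Srd5a1 and Nr3c1 in both tamoxifen experiments and those of Hsd17b2 in the 10-week experiment overlapped in TPM. Of 28 comparisons of a member within an experiment, 19 were lower and 0 were higher. The median log2 fold change of the tested members was -0.48, -0.74 and -0.84 in the 3 experiments, against 0.01 for all genes in each. The decrease was also more than 2-fold for 2 members in HFCFD2W (Hsd11b1 and Hsd17b6, against 1.38% of all genes), for 2 in the 10-day experiment (Hsd11b1 and Srd5a1, against 2.01%) and for 3 in the 10-week experiment (Hsd11b1, Hsd3b2 and Hsd3b3, against 3.47%). Hsd3b2 and Hsd3b3 were less than 2-fold lower there without TMM factors (-0.83 and -0.69), as was Hsd3b3 with upper quartile scaling (-0.98).

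The genotype effects were also compared between experiments. Hsd3b5 is left out of the counts here, because it passed the filter of the fit of all libraries through HFCFD2W, where it was high, and its tamoxifen-treated knockouts held at most 1 count. Of the other 9 members, 5 passed the interaction test for the 10-day experiment against HFCFD2W (11.2% of 12964 genes), 4 of them with a lower value (6.79% of all genes) and Hsd17b6 with a higher one (4.45%). Fits that left out 1 mouse were counted with Hsd3b5 included, and 3 to 7 members passed this contrast in them. For the 10-week experiment against HFCFD2W, 4 passed, all lower (30.7% of all genes passed, 17.3% with a lower value): Akr1c6, Hsd3b2, Hsd3b3 and Hsd17b2. Between the tamoxifen experiments, 0 of these 9 passed in edgeR, 1 of them (Serpina6) had an unadjusted p below 0.05, and DESeq2 called 0 as well, while 10.5% of all genes passed. For so few members, 4 of 9 against 30.7% and 0 of 9 against 10.5% are near the share of all genes. These 3 contrasts share mice with each other.

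The fl/fl livers also differed. From HFCFD2W to the 10-day experiment, 5 of the 9 members other than Hsd3b5 were lower and 0 higher (21.5% of all 12964 genes were lower): Hsd17b6, Hsd3b2, Hsd3b3, Srd5a1 and Hsd11b1. The log2 differences of Srd5a1 and Hsd11b1 were -0.67 (SE 0.212, adjusted p = 0.011) and -0.66 (SE 0.202, adjusted p = 0.00951), which without TMM factors became adjusted p = 0.0609 for each. From HFCFD2W to the 10-week experiment, 6 of these 9 were lower and 1 higher (19.4% and 19.8% of all genes). Without TMM factors, which moved the median of all genes to 0.25, Hsd3b2 (adjusted p = 0.228), Hsd3b3 (0.0715) and Hsd17b2 (0.0753) did not pass, and Akr1c6 was higher (0.24, adjusted p = 0.0283). Srd5a1 was 2.53-fold lower there (-1.34 (SE 0.216, adjusted p = 2.33e-05)), so that the fl/fl livers of the 10-week experiment, at 31.000 to 61.1 CPM, overlapped the HFCFD2W knockouts, at 53.3 to 99.99 CPM. From the 10-day to the 10-week experiment, Srd5a1 was lower (-0.66, adjusted p = 0.0419), and Hsd17b6 (1.66, adjusted p = 0.0263) and Serpina6 were higher, against 5.12% lower and 6.31% higher of all genes. The Srd5a1 and Hsd17b6 values did not pass in 6 and 5 of 30 fits that left out a mouse. Without TMM factors, the Srd5a1 value did not pass either (-0.62, adjusted p = 0.0544). Akr1c6 and Nr3c1 were the members that passed no fl/fl contrast with TMM factors.

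The other genes of the axis were described from lists. Of 11 tested cofactor and receptor partners of glucocorticoid action, 4 were higher and 0 lower in HFCFD2W, 0 higher and 2 lower in the 10-day, and 0 higher and 8 lower in the 10-week experiment, beside 8.6%, 10.3% and 27.4% of all genes higher and 8.09%, 6.85% and 23.8% lower. H6pd, which supplies the NADPH that 11β-hydroxysteroid dehydrogenase type 1 uses, was 438 ± 26.8 CPM in fl/fl and 429 ± 16.3 CPM in knockout mice of HFCFD2W (log2 fold change -0.03, adjusted p = 0.821). It was lower in the 10-week experiment (-0.60, adjusted p = 0.000197). Fkbp5, a cochaperone of the receptor that glucocorticoids induce, was higher in HFCFD2W knockouts, at 27.2 ± 5.00 CPM in fl/fl and 72.9 ± 13.4 CPM in knockout mice (1.42, adjusted p = 3.42e-05), and lower in 10-week knockouts (-0.68, adjusted p = 0.0407). The chaperone genes Hsp90aa1 (0.89) and Hsp90ab1 (0.44) were also higher in HFCFD2W. Hsd11b2, the enzyme of the opposite reaction, was at 0 counts in HFCFD2W and at most 1 count in any library of the other experiments.

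Of 16 glucocorticoid-responsive genes, 9 were higher and 1 lower in HFCFD2W knockouts, with a median log2 fold change of 1.197 (8.6% of all genes were higher). In the 10-day experiment, 0 were higher and 3 lower (median -0.18, 6.85% of all genes lower), and in the 10-week experiment 1 was higher and 9 lower (median -0.54, 23.8% of all genes lower). Igfbp1 was 22.6 ± 18.7 CPM in fl/fl and 236 ± 81.05 CPM in knockout mice of HFCFD2W (3.39, adjusted p = 0.000487), and Lpin1, a phosphatidate phosphatase, rose by 2.12 (adjusted p = 0.00213). The metallothionein gene Mt2 rose by 1.71 (adjusted p = 0.0186). In the 10-week experiment, Tdo2, tryptophan dioxygenase, was lower with a log2 fold change of -1.50 (adjusted p = 1.24e-06) and Tat, tyrosine aminotransferase, with -0.93 (adjusted p = 0.00164), while Sgk1 rose by 1.18 (adjusted p = 0.000528). Tdo2 was the 1 listed gene that was lower in all 3 experiments, with -0.57 in HFCFD2W and -1.47 in the 10-day experiment. Many genes of this list also respond to fasting, insulin and stress, and the genotype effects on them were not tested for a difference between experiments.

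Genes of steroid hydroxylation, conjugation and uptake were lower where they passed. Of those tested, 4 of 12 were lower in HFCFD2W, 7 of 12 in the 10-day and 9 of 11 in the 10-week experiment, and 0 were higher in each, against 8.09%, 6.85% and 23.8% of all genes lower. The median log2 fold change was -0.11, -1.29 and -1.54. The sulfotransferase gene Sult2a8 was 931 ± 107 CPM in fl/fl and 861 ± 66.2 CPM in knockout mice of HFCFD2W (-0.11, adjusted p = 0.439), and 635 ± 231 CPM in fl/fl and 12.03 ± 9.32 CPM in knockout mice of the 10-week experiment (-5.67, adjusted p = 1.57e-06). It was -3.77 in the 10-day experiment (adjusted p = 0.00376). The glucuronosyltransferase gene Ugt2b1 was -0.06 (adjusted p = 0.821), -2.94 (adjusted p = 1.4e-05) and -3.46 (adjusted p = 9.89e-06) in the 3 experiments, and belongs to a family of close paralogs. Slco1a1, an uptake transporter, was -3.40 in the 10-week experiment (adjusted p = 0.00784). Cyp3a25 (-0.96), Cyp3a11 (-0.78) and Slco1b2 (-0.70) were the 3 largest decreases of this list in HFCFD2W.

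**Figure D4:**
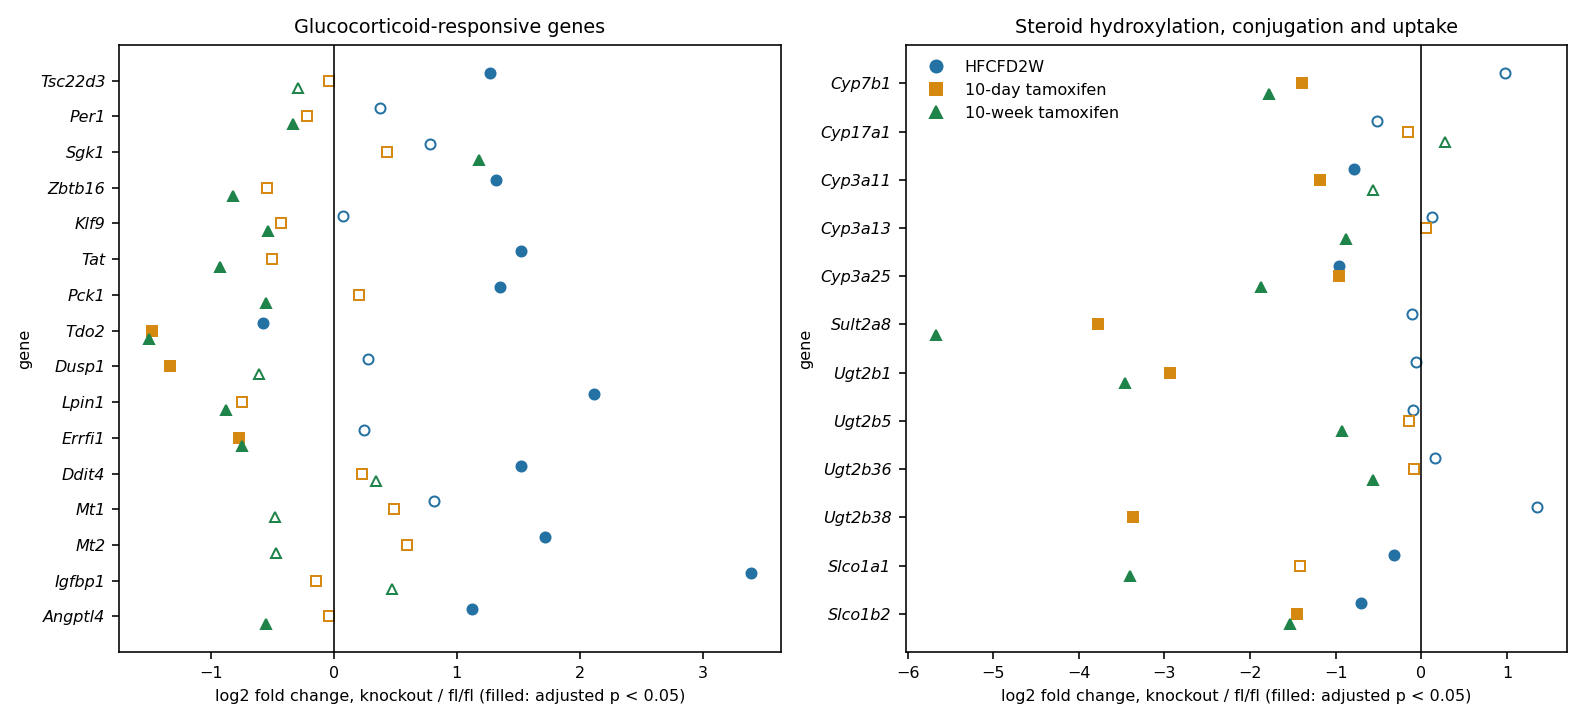
Log2 fold changes of knockout over fl/fl livers (horizontal axes) are plotted for the listed genes, with circles for HFCFD2W, squares for the 10-day and triangles for the 10-week tamoxifen experiment, filled where the adjusted p was below 0.05. In the left panel, 9 filled circles lie above 0 and 9 filled triangles below 0, and in the right panel every filled point lies below 0.

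Of 16 other steroid dehydrogenases and reductases tested in each experiment, 1 was higher and 3 lower in HFCFD2W, 2 higher and 1 lower in the 10-day, and 1 higher and 8 lower in the 10-week experiment. Of all genes, 8.6%, 10.3% and 27.4% were higher and 8.09%, 6.85% and 23.8% lower in the 3 experiments, so that several of these counts are near the share over all genes. Akr1d1, the 5β-reductase of steroids, was lower in HFCFD2W (-1.60, adjusted p = 7.23e-05) and in the 10-week experiment (-1.56, adjusted p = 1.15e-05), and was -0.23 in the 10-day experiment (adjusted p = 0.479). Hsd3b7, the family member of bile acid synthesis, was lower in HFCFD2W (-0.95) and the 10-day experiment (-0.64). The oestrogen receptor gene Esr1 was higher in HFCFD2W (1.83, adjusted p = 0.000394) and lower in the 10-week experiment (-0.45, adjusted p = 0.0174).

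Because Hsd3b5 is male-typical, sex-biased liver genes were set beside it. Of 9 male-biased genes tested, 2 were higher and 2 lower in HFCFD2W, and 0 were higher and 6 lower in each tamoxifen experiment, where 8.6%, 10.3% and 27.4% of all genes were higher and 8.09%, 6.85% and 23.8% lower in HFCFD2W, the 10-day and the 10-week experiment. Elovl3, a fatty acid elongase, was 54.4 ± 7.24 CPM in fl/fl and 46.4 ± 20.1 CPM in knockout mice of HFCFD2W (-0.22, adjusted p = 0.579), and 63.3 ± 51.99 CPM in fl/fl and 1.46 ± 2.32 CPM in knockout mice of the 10-day experiment (-5.56, adjusted p = 0.000426). The cytochrome Cyp4a12a was -2.43 in the 10-day and -3.67 in the 10-week experiment. Its fl/fl level was 381 ± 59.2 CPM in HFCFD2W, 47.3 ± 33.6 CPM in the 10-day and 42.8 ± 44.5 CPM in the 10-week experiment. In fl/fl livers, the male-biased genes had median sums of 5549, 2256 and 1315 CPM in the 3 experiments, and the female-biased genes 145.5, 660.4 and 1308 CPM. These fl/fl differences were not tested. Of the female-biased genes, 0 of 2 tested were higher in HFCFD2W, 2 of 7 in the 10-day and 0 of 8 in the 10-week experiment, and 2, 3 and 5 were lower, against the same shares of all genes. Cyp2a4 was -6.97 in HFCFD2W, at 124 ± 103 CPM in fl/fl and 0.993 ± 0.968 CPM in knockout mice.

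Markers of other cell types moved with genotype too, and their part in the decreases above was not tested. The summed level of 10 hepatocyte markers ranged from 130000 to 163000 CPM in fl/fl and from 133000 to 182900 CPM in knockout livers of HFCFD2W. It ranged from 127000 to 156500 and from 87470 to 143000 CPM in the 10-day, and from 109100 to 133800 and from 70460 to 79130 CPM in the 10-week experiment. Alb was the largest part of this sum, with means of 96091 CPM in fl/fl and 49641 CPM in knockout livers of the 10-day experiment. In the 10-week experiment, Alb was at 77545 and 35080 CPM. Trf, the second most abundant, was at 19416 and 30500 CPM in the 10-day and 17962 and 20607 CPM in the 10-week experiment, and passed in neither. Of these 10 markers, 1, 3 and 5 were lower and 0 higher in the 3 experiments, against 8.09%, 6.85% and 23.8% of all genes lower. Of the cholangiocyte markers tested, 1 of 2 was higher in HFCFD2W, 5 of 7 in the 10-day and 8 of 8 in the 10-week experiment, against 8.6%, 10.3% and 27.4% of all genes. Most of their summed level was Spp1, osteopontin, which other liver cells can also express and which stood at 46.02 ± 6.22 CPM in fl/fl and 801 ± 136 CPM in knockout mice of the 10-week experiment. The other 7 markers summed to 3.548 to 6.531 CPM in fl/fl and 4.298 to 10.99 CPM in knockout livers of HFCFD2W, to 5.283 to 13.87 and 14.11 to 20.23 CPM in the 10-day, and to 4.595 to 6.563 and 61.98 to 102.3 CPM in the 10-week experiment. Of 10 stellate cell and myofibroblast markers, 0, 3 and 10 were higher. Their sums were 166.4 to 326.3 CPM in fl/fl and 163.7 to 358.3 CPM in knockout livers of HFCFD2W, 367.6 to 656.2 and 608.8 to 1228 CPM in the 10-day, and 326.6 to 412.9 and 1302 to 1619 CPM in the 10-week experiment. Of the macrophage markers tested, 3 of 7 were higher in HFCFD2W, 6 of 8 in the 10-day and 5 of 8 in the 10-week experiment, where 1 was lower. Their sums were 206.6 to 288.7 CPM in fl/fl and 254.2 to 392.4 CPM in knockout livers of HFCFD2W, 595.4 to 1103 and 1014 to 2132 CPM in the 10-day, and 297.9 to 932.4 and 926.9 to 1126 CPM in the 10-week experiment. Of 6 endothelial markers, 0 were higher and 0, 1 and 2 were lower, and of the lymphocyte markers tested, 0 of 1, 0 of 2 and 3 of 4 were higher.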

How the data were processed

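Livers of 30 mice, 5 per genotype in each of 3 experiments, were profiled by stranded polyA RNA-seq, with 1 library per mouse. Per the submitters' processing notes, reads were handled with Trimmomatic 0.36, STAR 2.5.1 (mm10), Picard 1.84, RSEM 1.2.22 and DESeq2. The authors deposited RSEM expected counts per gene, with TPM (used for levels between genes) and FPKM (not used) beside them, and a table of filtered counts divided by 1 factor per library, a normalized signal. All 55450 gene identifiers matched GENCODE M21. Expected counts, of which 3.25% were not whole (tolerance 0.005), were rounded.

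Genotypes were compared within each experiment with edgeR 4.0.16 in R 4.3.3 (low-count filter by genotype, TMM factors, quasi-likelihood test, Benjamini-Hochberg adjustment over all genes tested). Differences between experiments came from 1 fit of all 6 groups. A gene passed at adjusted p below 0.05. The summed Hsd3b CPM were tested by exact two-sided permutation of the log2 values with a pseudocount of 1 (scipy 1.17.1). On simulated counts, the HFCFD2W fit recovered 83 of 98 genes changed 2-fold and all 99 changed 4-fold, among 11096 genes.

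All 10 members are named, with Cebpa, the 3 genes nearest to Hsd11b1, and from each list at most the 3 passing genes with the largest change in an experiment. From each marker list, the most abundant gene and up to 2 others could be named. Hsd11b2, Star and 3 adrenocortical markers at 0 counts fall outside this rule and were named after their values were seen. The members and lists were chosen with earlier results of these data known. Alternatives were no low-count filter, upper quartile scaling, DESeq2 1.42.0, limma 3.58.1 on the deposited normalized signal, a joint fit, a replicate block, leaving out each mouse, and library totals without TMM, the last chosen after seeing the data. The replicates are labelled biological. Libraries held 7996123 to 10257347 counts, and no pair held identical values.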

Additional observations from a re-analysis of the deposited data

Results flagged for a closer look

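Among 60 sets of 5 mice (10 genes in 6 groups), 3 held a mouse far from the other 4. Chance marks about 1 in 20 such sets. Hsd3b2 in the 10-week knockouts was highest in mouse 3, at 14.5 CPM. Hsd3b5 in the 10-week fl/fl livers was highest in mouse 4, at 27.9 CPM. Hsd17b6 in the HFCFD2W fl/fl livers was lowest in mouse 5, at 123.0 CPM, against 208 to 218 CPM in the other 4, and the genotype difference remained past the threshold in every fit that left out 1 mouse.

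Of 30 tests of a difference between the genotype effects of 2 experiments, 11 had an adjusted p below 0.05 in edgeR, or 9 of 27 without Hsd3b5. Among all 12964 genes, 11.2% passed for 10-day minus HFCFD2W, 10.5% for 10-week minus 10-day and 30.7% for 10-week minus HFCFD2W. Relative to HFCFD2W, the log2 fold change in the 10-day tamoxifen experiment was lower for Akr1c6 (-0.88), Hsd3b2 (-1.09), Hsd3b3 (-0.68) and Hsd17b2 (-0.93), and it was higher for Hsd17b6 (2.70). In the 10-week tamoxifen experiment, it was lower for Akr1c6 (-0.85), Hsd3b2 (-1.37), Hsd3b3 (-1.03) and Hsd17b2 (-1.31). For Hsd3b5, whose tamoxifen-treated knockouts had at most 1 count, the adjusted p was 0.032 in the 10-day and 0.0287 in the 10-week experiment. It entered that fit through HFCFD2W, where it was high, so these values are no support for a difference. HFCFD2W differs from both tamoxifen experiments in Cre line, time on diet and tamoxifen, which cannot be told apart.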

How the results depend on the processing

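The decrease of Hsd11b1 passed the threshold in each experiment under all 7 alternatives and in all 10 fits that left out 1 mouse. A fold above 2 in addition to the adjusted p left 2 of 5 members in HFCFD2W, 2 of 6 in the 10-day and 3 of 8 in the 10-week tamoxifen experiment. Replicate numbers are shared by the genotypes but are not stated to pair the mice. Deviations of mice with the same number correlated at -0.377 to 0.223, which cannot decide whether the mice were paired. With a replicate block, which could use 8 mice in HFCFD2W, 3 members passed there in place of 5. In that fit, Srd5a1 stood at -0.64 and Hsd3b5 at -0.68. The block changed no call in the other experiments. Summing all Hsd3b genes gave a difference of -0.62 (exact permutation p = 0.00794) in HFCFD2W in place of -0.33, Hsd3b7 being most of the added level, while leaving out 1 mouse gave -0.415 to -0.253 (p = 0.0317 without knockout mouse 2, otherwise above the threshold).

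Of the member comparisons, DESeq2 left 87 on their side of the threshold and gained 1 (Serpina6, 10-day minus HFCFD2W), and no low-count filter left all 88 and also tested Hsd3b5 in the tamoxifen experiments. Without TMM, an alternative chosen after seeing the data, 11 calls were lost and 3 gained (Serpina6 for the effect of 10-day and Hsd17b6 for that of 10-week minus HFCFD2W, and Akr1c6 for fl/fl levels of 10-week minus HFCFD2W). Serpina6 turned to 0.007 in the 10-day experiment, and several differences between experiments changed sign without passing in either fit. For effects, these were Nr3c1 (0.017 for 10-day minus HFCFD2W, 0.18 for 10-week minus 10-day, 0.197 for 10-week minus HFCFD2W) and Srd5a1 (0.175 for 10-week minus HFCFD2W). For fl/fl levels, they were Akr1c6 (0.051) and Nr3c1 (0.087) for 10-day minus HFCFD2W, and Nr3c1 at 0.041 and 0.128 for the 10-week experiment minus the 10-day one and HFCFD2W. Upper quartile scaling gave Akr1c6 -0.005 in HFCFD2W and Nr3c1 0.05 for the effect of 10-week minus 10-day. The cause was not tested.

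Leaving out 1 mouse also changed the sign of some values. The ranges were -0.043 to 0.043 for Akr1c6 in HFCFD2W. For effects they were -0.062 to 0.12 (Akr1c6) and -0.063 to 0.051 (Nr3c1) for 10-week minus 10-day, and -0.116 to 0.143 (Serpina6) for 10-week minus HFCFD2W. For fl/fl levels they were -0.088 to 0.134 (Serpina6, 10-day minus HFCFD2W), -2.933 to 0.082 (Hsd3b5) and -0.046 to 0.037 (Nr3c1) for 10-week minus 10-day, and -0.042 to 0.09 (Akr1c6, 10-week minus HFCFD2W). The number of members passing, Hsd3b5 included, ranged from 3 to 7 for the effects of 10-day minus HFCFD2W (3 without knockout mouse 2 or fl/fl mouse 3 of the 10-day experiment), from 0 to 1 for 10-week minus 10-day (1 without knockout mouse 5 of the 10-day experiment), and from 1 to 4 for fl/fl levels of 10-week minus 10-day. The last was 1 without fl/fl mouse 2, 3 or 4 of the 10-day or fl/fl mouse 3 or 5 of the 10-week experiment. Depth limits Hsd3b5 in the tamoxifen experiments.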
